A study of Mus musculus with 12 samples.

Results

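Translation initiation factors are the proteins that bring a ribosome to the start codon of an mRNA. Their genes, listed as rows of the deposited count file, were chosen by name: protein-coding genes of the mouse annotation (GENCODE release M21) whose symbol begins with Eif and a digit from 1 to 6, without the eIF2 kinases and without the Y-linked copy of the eIF2 gamma gene. This gave 50 genes of the 52636 identifiers in the file. No measured value enters that rule, but the family was selected on earlier results of the same data, so its counts in the comparison of full-length protein with vehicle are a description. Of the 50 genes, 49 had enough reads to be tested, among 14687 tested genes in all. Eif4e1b, a relative of the cap-binding protein known from oocytes, had 0 reads in all 12 libraries and was not tested.

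The cells were primary microglia, the resident macrophages of the brain, shaken off mixed glial cultures of newborn wild-type C57BL/6 mice. All wells held 50000 cells and 2.5 ng of CSF1, a growth factor of microglia. For 24 h they received vehicle, 5 µg of the whole NfL protein (neurofilament light chain, a structural protein of axons) or 5 µg of its coiled-coil domain, and the study asked how the transcriptome of microglia differs after each. There were 4 libraries per group in 3 groups (vehicle, full-length NfL, coiled-coil NfL), and replicate numbers 1 to 4 stand for 4 batches with 1 library per group in each. The labels do not say whether batches were separate litters or cultures, so the p-values capture only the spread between these libraries, which may be technical. Library totals ran from 20162427 to 31048044 counts, and no 2 libraries held identical values. The 10 microglial markers summed to 10014 to 11930 CPM (counts relative to a library's scaled total) after vehicle and 8584 to 9998 after full-length NfL, with 1 called higher and 4 called lower (3 and 5 with the batch number as a block in the fit). All 10 markers were detected in every group. Mitochondrial genes took 0.400% to 0.518% of the counts after vehicle and 0.210% to 0.372% after full-length NfL.

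Initiation runs in steps, and the family is described below in the order of those steps. The eIF2 complex carries the initiator tRNA to the small ribosomal subunit, and eIF2B reloads eIF2 with GTP. The small subunit also binds eIF1, eIF1A, eIF5 and the large eIF3 complex. The cap of the mRNA is bound by eIF4E, which joins the scaffold eIF4G and the helicase eIF4A to form eIF4F, and the 4E-binding proteins keep eIF4E away from eIF4G. Stress kinases that phosphorylate the eIF2 alpha subunit block eIF2B, which lowers most translation and raises translation of ATF4, a transcription factor. The kinase complex mTORC1 phosphorylates 4E-binding proteins and releases eIF4E.

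Because reads of 50 bases can match more than 1 gene, each member's transcripts were cut into 50-base windows and compared with all annotated transcripts. Eif3j2 shared 91.8% of its windows with other genes, mainly with its near-copy Eif3j1, which shared 50.9%. Eif4ebp3 shared 65.5% with an overlapping gene model, AC115631.1, and Eif3d shared 37.2% with an antisense gene, Gm17638. For Eif2s3x (34.6%), Eif4a1 (28.4%) and Eif3h (20.3%) the partner with the most matches was a processed pseudogene. For Eif1 (19.2%) 17 of 18 partner genes were pseudogenes, but the partner with the most matches was the protein-coding gene Emd. The values of these 8 genes are therefore uncertain. The remaining tested genes shared 18.4% or less. Per kilobase of exon, Eif4g2 had the highest level after vehicle, 107 ± 7.46 CPM per kb (SD, n = 4). Eif3h followed with 78.4 ± 13.4, Eif4b with 78.1 ± 12.0, Eif3c with 72.5 ± 1.97 and Eif4g1 with 67.3 ± 1.2 CPM per kb; Eif3h, Eif4b and Eif3c did not differ beyond their spread. The lowest tested levels were those of Eif2s3x (0.250 ± 0.0709 CPM per kb) and Eif3j1 (0.254 ± 0.0609), both with a large share of windows found elsewhere. Eif2b3, with 1.46 ± 0.119 CPM per kb, was low although none of its windows was shared.

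**Figure D1:**
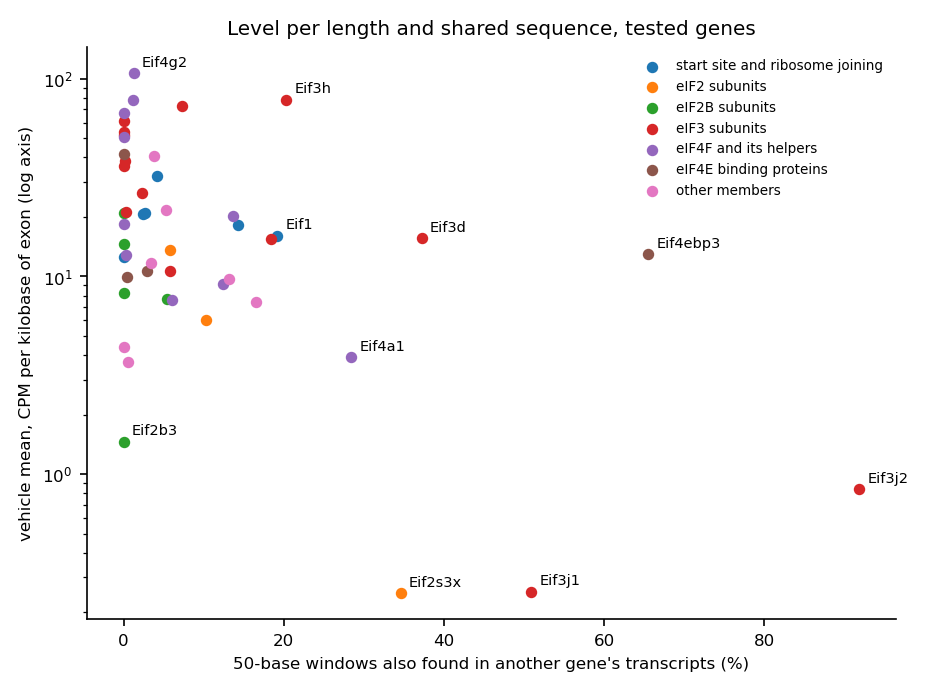
Each point is 1 of 49 tested genes: the x axis gives the percentage of its 50-base windows also found in another gene's transcripts, the y axis (log scale) its vehicle mean in CPM per kilobase of exon (n = 4), and colour its role. Most genes lie near 0% on the x axis, whereas Eif2s3x, Eif3j1 and Eif3j2 combine low levels with 34.6% to 91.8% shared windows. Shared windows did not always go with low levels: Eif4ebp3 (65.5%) had 13, Eif3d (37.2%) 15.6 and Eif3h (20.3%) 78.4 CPM per kb.

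Promoter sequence was available for 38 of the 50 genes in a table from RefSeq (build GRCm38.p6) that holds 250 bases before and 50 bases after each transcript start. A gene was counted as holding a motif if the sequence at any of its listed starts held it. The number of starts per gene and the GC content were not matched between members and other genes. The E-box CACGTG, the site of MYC and of related factors, is a palindrome and so reads alike on both strands. It was present in 10 of 38 members (26.3%), in 1193 of 10242 tested genes (11.6%) and in 2187 of 27025 genes of the table (8.09%). Members called higher after full-length NfL held it in 4 of 17 cases (23.5%) and members not called in 5 of 19 (26.3%). Of the 2 members called lower 1 held it, too few to tell whether the E-box separates members that rose from those that fell. The windows below hold 25 bases on each side of the E-box. They are printed because they hold the motif in a member that rose (Eif5a), in its paralog that fell (Eif5a2), in a further member that rose (Eif4g1) and in a member not called (Eif3f). The motif is in capitals, each sequence runs 5′ to 3′ on the gene's strand, and a match is a description of the letters, not a binding site.
Eif5a: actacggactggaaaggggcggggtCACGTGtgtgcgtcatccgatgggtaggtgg
Eif5a2: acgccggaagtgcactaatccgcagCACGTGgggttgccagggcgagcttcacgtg
Eif4g1: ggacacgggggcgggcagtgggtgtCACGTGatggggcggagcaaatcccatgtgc
Eif3f: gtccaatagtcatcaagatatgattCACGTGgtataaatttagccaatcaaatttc

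The Eif5a window lies at chr11:69921430-69921485 on the minus strand, in an intron of longer annotated Eif5a transcripts, and its E-box begins 74 bases before 1 RefSeq start and 185 before another. That of Eif5a2, at chr3:28781110-28781165 on the plus strand, lies outside annotated transcripts with its E-box 142 bases before the start, and its last 6 letters are a further E-box. The Eif4g1 window is at chr16:20672648-20672703 on the plus strand, within an intron, 54 bases before a start. The Eif3f window is at chr7:108934322-108934377 on the plus strand, outside annotated transcripts, 68 bases before the start. Of other motifs, both strands searched, GGAAGT (the core bound by ETS factors) was in 20 of 38 members (52.6%) and 32.5% of tested genes. TGATGNAA, which the C/EBP-ATF element bound by ATF4 contains, was in 1 of 38 members (2.63%) and 2.81% of tested genes. A start of C followed by at least 4 pyrimidines, the mark of mRNAs whose translation depends strongly on mTORC1, was found in 2 of 38 members (5.26%) and 3.05% of tested genes.

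After full-length NfL, 22 of the 49 tested members rose (44.9%) and 2 fell (4.08%) at an adjusted p under 0.05 in edgeR's quasi-likelihood test with Benjamini-Hochberg adjustment over all genes; such genes are called below. Among all tested genes 14.0% were called higher and 10.9% lower. At an unadjusted p under 0.05, 26 members were higher and 2 lower, against 3053 and 2600 of the 14687 tested genes. The median log2 fold change was 0.23 over the members and -0.02 over all tested genes. Values were positive in 40 of 49 members and in 7058 of the 14687 tested genes. With the batch number as a block, which pairs the libraries, 24 members were called higher and 3 lower, against 21.4% and 22.4% of all tested genes. Under upper-quartile scaling the split over all genes changed from 2062 higher and 1594 lower to 1691 higher and 2003 lower, and 18 members were called higher and 2 lower. Summed over the family, the level was 5896 ± 170 CPM after vehicle, 7310 ± 496 after full-length NfL and 6283 ± 283 after coiled-coil NfL (SD, n = 4). Without Eif4g2 these sums were 4806 ± 213, 5442 ± 209 and 5074 ± 200 CPM. Fewer calls came without vehicle replicate 2 and full-length replicate 4 together, which deviated from their group means in like fashion across batches (r = 0.44 across genes): 9 members were then called higher and 2 lower. Of all tested genes, 5.35% were then called higher and 3.67% lower.

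**Figure D2:**
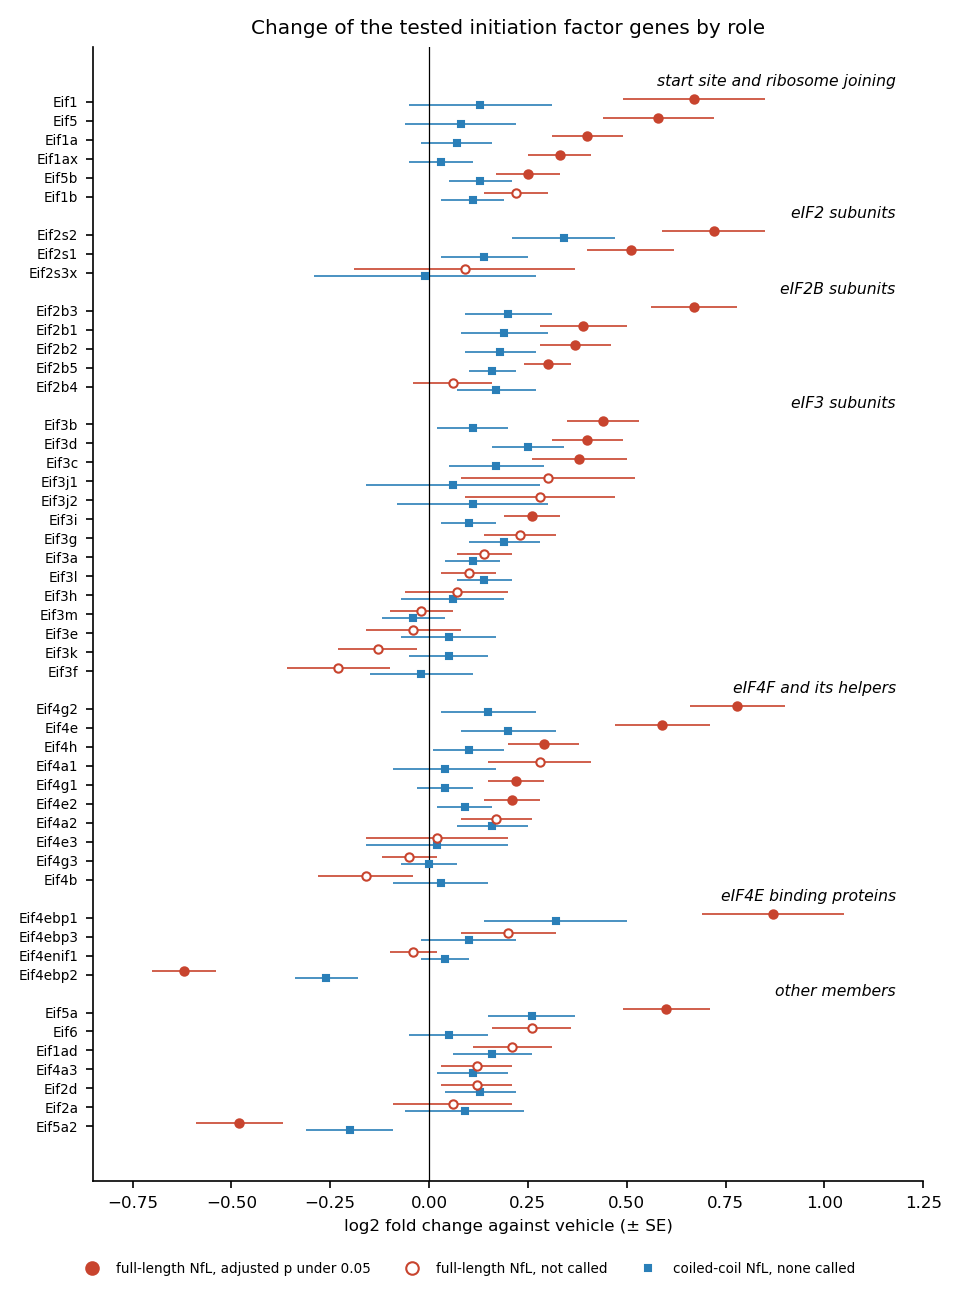
Log2 fold change against vehicle (x axis, bars ± SE from the edgeR fit) of 49 genes grouped by role (y axis); circles are full-length NfL, filled where called, and squares are coiled-coil NfL, for which no member was called. The full-length values reach from -0.62 (Eif4ebp2) to 0.87 (Eif4ebp1), the coiled-coil values from -0.26 to 0.34.

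Of the 6 factors that act in start site selection and ribosome joining, 5 rose after full-length NfL, with a median log2 fold change of 0.37. Eif1a, the copy on chromosome 18 of the gene for eIF1A, which together with eIF1 keeps the ribosome scanning, was at 79.2, 86.8, 99.1 and 82.9 CPM in vehicle replicates 1 to 4 and at 103, 129, 111 and 117 in full-length replicates 1 to 4. All full-length libraries lay above all vehicle libraries, and the log2 fold change was 0.40 ± 0.09 (SE; adjusted p = 0.00935). Eif1ax, its X-linked copy, had 69.7, 64.8, 59.9 and 68.6 CPM after vehicle and 89.4, 85.2, 71.9 and 83.6 after full-length NfL, again without overlap (0.33 ± 0.08 on the log2 scale, adjusted p = 0.00956). Coiled-coil libraries held 66.7, 66.0, 64.4 and 71.2 CPM of Eif1ax, within or just above the vehicle range.

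Eif1 (eIF1 itself) had 30.9, 37.0, 35.7 and 31.3 CPM after vehicle and 40.7, 74.6, 43.5 and 56.1 after full-length NfL. These groups did not overlap, but full-length replicate 2 stood well above the other 3. The log2 fold change of Eif1 was 0.67 ± 0.18 (adjusted p = 0.0199), and the call was lost without full-length replicate 2 (0.47, adjusted p = 0.0545), vehicle replicate 1 (0.0522) or vehicle replicate 4 (0.0560). Such fits with a library left out, here and below, did not use the batch block. With the block and all libraries Eif1 was called (adjusted p = 0.00104). Eif5b, the GTPase that joins the ribosomal subunits, had 166, 179, 183 and 180 CPM after vehicle and 184, 220, 216 and 225 after full-length NfL (0.25 ± 0.08, adjusted p = 0.0355). Its lowest full-length library stood just above the highest vehicle library, and the call was lost in 10 of 20 alternative settings, among them the removal of vehicle replicate 1, 2 or 4 or of full-length replicate 2, 3 or 4 (adjusted p 0.0580 to 0.0902). With the batch block Eif5b was called (adjusted p = 0.00354). Eif5, which triggers GTP hydrolysis by eIF2, rose by a log2 value of 0.58 ± 0.14 (adjusted p = 0.0122). Eif1b, a close relative of Eif1, had a log2 value of 0.22 ± 0.08 and was not called (adjusted p = 0.0536), though it was called with the batch block (0.0114).

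For eIF2, 2 of 3 subunit genes rose. Eif2s1 encodes the alpha subunit, the target of the stress kinases, at position 78861819 to 78887010 of chromosome 12 (GRCm38, plus strand). It had 59.3, 72.6, 72.4 and 65.4 CPM after vehicle and 83.0, 99.1, 97.3 and 104 after full-length NfL, with every full-length library above every vehicle library. The log2 fold change was 0.51 ± 0.11 (adjusted p = 0.00595), an increase of 42.1%. Eif2s2, the beta subunit, had 37.4, 39.4, 46.4 and 39.3 CPM after vehicle and 54.3, 82.7, 62.4 and 67.4 after full-length NfL. It rose by 0.72 ± 0.13 on the log2 scale (adjusted p = 0.00372), again with no overlap. Eif2s3x, the X-linked gamma subunit, was counted at only 14 to 32 reads per library, and its log2 value of 0.09 ± 0.28 (95% interval -0.51 to 0.69) leaves its change undetermined at this depth.

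Of the 5 eIF2B subunits, 4 rose, with a median of 0.37. Eif2b3, the gamma subunit on chromosome 4 (117019402 to 117087306, plus strand), had the largest value among them: 8.59, 9.42, 10.5 and 9.47 CPM after vehicle against 15.1, 15.6, 13.3 and 16.2 after full-length NfL. The 4 full-length values were close together and well above the vehicle values (0.67 ± 0.11 on the log2 scale, adjusted p = 0.00188). Eif2b5, the catalytic epsilon subunit, had 52.9, 56.1, 55.9 and 52.3 CPM after vehicle and 63.7, 73.3, 62.4 and 67.6 after full-length NfL (0.30 ± 0.06, adjusted p = 0.00639). Its groups did not overlap either. Eif2b1 and Eif2b2, of the regulatory part of the complex, rose by 0.39 ± 0.11 and 0.37 ± 0.09 (adjusted p = 0.0246 and 0.0130). The call of Eif2b1 was lost without vehicle replicate 1 or 2 or full-length replicate 1 or 4 (adjusted p 0.0538 to 0.0667). With the batch block and all libraries it was present (adjusted p = 0.0114). Eif2b4, the delta subunit, was not called, with a log2 value of 0.06 ± 0.10 and a 95% interval from -0.16 to 0.27.

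The 14 genes for eIF3 subunits moved less evenly: 4 were called higher and none lower, with log2 values from -0.23 to 0.44 and a median of 0.18. At an unadjusted p under 0.05 the counts were 5 and 0, against 3053 and 2600 of all 14687 tested genes. Eif3b, a core scaffold subunit, had 174, 186, 185 and 179 CPM after vehicle and 245, 264, 211 and 260 after full-length NfL, a rise of 35.4% (log2 0.44 ± 0.09, adjusted p = 0.00539). All full-length libraries were above the vehicle range. Eif3d, a subunit that can itself bind the cap of some mRNAs, had 75.0, 76.8, 83.7 and 75.3 CPM after vehicle, 91.5, 111, 105 and 103 after full-length NfL and 75.6, 105, 94.1 and 94.0 after coiled-coil NfL. It was called for full-length NfL (0.40 ± 0.09, adjusted p = 0.0108), with its antisense partner as a limit. Eif3c (0.38 ± 0.12, adjusted p = 0.0318), another core subunit, and Eif3i (0.26 ± 0.07, adjusted p = 0.0159) also rose. The call of Eif3c was lost without vehicle replicate 1, 2 or 4 or full-length replicate 2 or 4 (adjusted p 0.0547 to 0.0924, the last with a log2 value of 0.27 without full-length replicate 2). With the batch block and all libraries Eif3c was called (adjusted p = 0.00436).

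Several other eIF3 subunits had values around 0: Eif3e -0.04 ± 0.12, Eif3h 0.07 ± 0.13, Eif3k -0.13 ± 0.10, Eif3l 0.10 ± 0.07 and Eif3m -0.02 ± 0.08 on the log2 scale, none called. Eif3f had the lowest value of the complex, -0.23 ± 0.13 (adjusted p = 0.207), with 186, 145, 216 and 161 CPM after vehicle and 151, 142, 171 and 140 after full-length NfL. The groups overlapped, yet in each of the 4 batches the full-length library was below the vehicle library of its batch. With the batch block Eif3f was called lower (adjusted p = 0.0141), and Eif3g, at 0.23 ± 0.09 without the block (adjusted p = 0.0760), was called higher (0.0337). Eif3a, the largest subunit, was at 0.14 ± 0.07 and was not called.

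Of the 10 tested genes of eIF4F and its helpers, 5 rose and none fell (at an unadjusted p under 0.05, also 5 and 0). Eif4g2 (DAP5; chromosome 7, 111067750 to 111083030, minus strand), an eIF4G relative that cannot bind eIF4E and serves other routes of initiation, had 1017, 1152, 1032 and 1159 CPM after vehicle and 1733, 2247, 1539 and 1950 after full-length NfL. The lowest full-length library exceeded the highest vehicle library by a wide margin, and the rise was 71.3% (log2 0.78 ± 0.12, adjusted p = 0.00142). Eif4e, the cap-binding protein (chromosome 3, 138526179 to 138559696, plus strand), had 43.3, 49, 42.9 and 47.6 CPM after vehicle and 64.1, 81.0, 56.4 and 74.1 after full-length NfL. It rose by 50.7% (log2 0.59 ± 0.12, adjusted p = 0.00433), with no overlap. Eif4g1, the main scaffold, had 497, 499, 480 and 489 CPM after vehicle and 613, 575, 527 and 574 after full-length NfL. Its rise was smaller (0.22 ± 0.07, adjusted p = 0.0299), and its call was lost in 11 of 20 settings, among them upper-quartile scaling and the removal of any vehicle library or of full-length replicate 1, 2 or 4 (adjusted p 0.0514 to 0.0722 for these libraries). With the batch block and all libraries Eif4g1 was called (adjusted p = 0.0132).

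The helicase genes did not pass the test. Eif4a1, the main eIF4A gene, had 17.1, 16.7, 17.6 and 16.3 CPM after vehicle and 22.1, 22.3, 16.3 and 21.4 after full-length NfL, so that full-length replicate 3 alone lay in the vehicle range (0.28 ± 0.13, adjusted p = 0.141). Without full-length replicate 3 the gene was called higher (0.37, adjusted p = 0.0474). Eif4a2, its paralog, had 124, 102, 95.6 and 110 CPM after vehicle, 114, 131, 110 and 131 after full-length NfL and 126, 120, 113 and 123 after coiled-coil NfL, with wide overlap (0.17 ± 0.09 for full-length NfL, adjusted p = 0.168). Eif4h, which stimulates the helicase, rose by 0.29 ± 0.09 (adjusted p = 0.0280), a call lost without vehicle replicate 1, 2 or 4 or full-length replicate 2 or 4 (0.0582 to 0.0752). With the batch block and all libraries Eif4h was called (adjusted p = 0.0096). Eif4b, which also stimulates the helicase, had a log2 value of -0.16 with a 95% interval from -0.42 to 0.09. Eif4e2, a cap-binding relative linked to repression, was called higher (0.21 ± 0.07, adjusted p = 0.0434) although its groups overlapped, and the call was lost in 10 of 20 settings, among them the removal of vehicle replicate 1, 2 or 4 or full-length replicate 2, 3 or 4 (0.0553 to 0.111). With the batch block and all libraries Eif4e2 was called (adjusted p = 0.0148). Eif4e3 and Eif4g3 were at 0.02 and -0.05 and were not called.

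The 4E-binding proteins held both ends of the family's range. Eif4ebp1 (chromosome 8, 27260329 to 27276674, plus strand), the repressor of eIF4E best known as a target of mTORC1, had 24.1, 22.0, 26.8 and 21 CPM after vehicle, 36.7, 57.9, 37.0 and 40.1 after full-length NfL and 21.3, 36.7, 28.1 and 31.4 after coiled-coil NfL. All full-length libraries lay above all vehicle libraries, and full-length replicate 2 was the highest. The log2 fold change for full-length NfL was 0.87 ± 0.18 (95% interval 0.48 to 1.26, adjusted p = 0.00546), a rise of 82.7%. Eif4ebp2 (chromosome 10, 61428491 to 61452661, minus strand), its paralog with the same action, went the other way: 226, 231, 251 and 254 CPM after vehicle, 167, 137, 168 and 153 after full-length NfL and 198, 187, 225 and 193 after coiled-coil NfL. All full-length libraries lay below all vehicle libraries, and the value of -0.62 ± 0.08 (95% interval -0.80 to -0.44) had the smallest adjusted p of the family (0.000856). Per kilobase of exon Eif4ebp2 remained the higher of the pair in vehicle, at 41.5 ± 2.43 against 10.7 ± 1.16 CPM per kb (SD, n = 4). Eif4ebp3 (0.20 ± 0.12) and Eif4enif1 (-0.04 ± 0.06), which carries eIF4E into the nucleus, were not called.

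Of the 7 other members, 1 rose and 1 fell, and these too are paralogs. Eif5a (chromosome 11, 69916714 to 69921958, minus strand), which carries the modified amino acid hypusine and helps ribosomes past difficult stretches, had 92.2, 99.1, 95.9 and 97.4 CPM after vehicle, 161, 142, 134 and 149 after full-length NfL and 93.5, 133, 102 and 133 after coiled-coil NfL. Full-length and vehicle libraries were far apart (log2 0.60 ± 0.11, adjusted p = 0.00333). Eif5a2 (chromosome 3, 28781276 to 28798846, plus strand), its less widely expressed paralog, had 20.1, 20.2, 24.2 and 23.9 CPM after vehicle, 17.6, 12.9, 17.3 and 15.5 after full-length NfL and 19.0, 18.7, 20.1 and 19.2 after coiled-coil NfL. It fell by 0.48 on the log2 scale (SE 0.11, adjusted p = 0.00802), and no full-length library reached the vehicle range. Eif6, which keeps the ribosomal subunits apart, Eif1ad, Eif4a3, a part of the exon junction complex, Eif2d and Eif2a had log2 values between 0.06 and 0.26, none called.

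**Figure D3:**
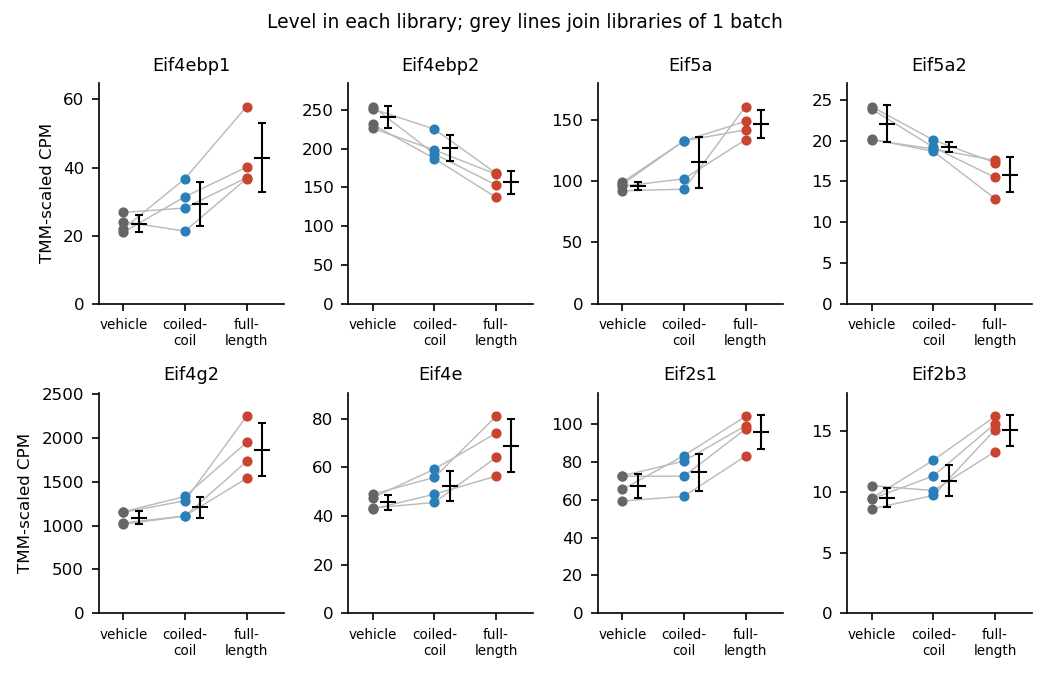
TMM-scaled CPM (y axis, from 0) of 8 members in each library (points) by group (x axis), with grey lines joining libraries of 1 batch and black marks giving mean ± SD (n = 4). Eif4ebp1 and Eif5a are highest after full-length NfL, for example Eif4ebp1 at 36.7 to 57.9 CPM, whereas Eif4ebp2 and Eif5a2 are lowest there.

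Against vehicle, coiled-coil NfL moved no member past the threshold in edgeR: 0 were called higher and 0 lower, as in all tested genes (0% each). DESeq2 also called 0 members, against 0.163% of all tested genes higher and 0.0613% lower, so this count is near the background. At an unadjusted p under 0.05, 5 of 49 members were higher and 1 lower, against 675 and 407 of the 14687 tested genes, so the lower count was near the background. With the batch block 0 members were called, against 0.00681% of all tested genes higher and 0.00681% lower. The median log2 value was 0.11 over the members and 0.00 over all tested genes. Values were positive in 43 of 49 members and in 7480 of the 14687 tested genes. This contrast shares its vehicle libraries with that of full-length NfL, so its values are not independent of it and are a description too. Eif4ebp2 had the smallest p, with a log2 value of -0.26 (95% interval -0.44 to -0.08, adjusted p = 0.647) and every coiled-coil library below every vehicle library. Eif2b5 (0.16, adjusted p = 0.668) and Eif3l (0.14, adjusted p = 0.692) were not called, although every coiled-coil library lay above every vehicle library. Such separation was not counted over all tested genes, so it does not set these members or Eif4ebp2 apart. Eif2s2 stood at 0.34 (interval 0.05 to 0.63, adjusted p = 0.668), with 40.7, 55.7, 53.6 and 55.7 CPM in coiled-coil replicates 1 to 4. Replicate 1 alone lay within the vehicle range. For Eif4g2 the value was 0.15 (interval -0.11 to 0.41), for Eif2b3 0.20 (-0.04 to 0.44) and for Eif4ebp1 0.32 (-0.06 to 0.71). All 3 intervals include 0.

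The full-length and coiled-coil groups were compared directly, which asks whether the 2 forms of NfL differ; this contrast shares its full-length libraries with the first. Eif2b3 and Eif4g2 were called higher after full-length NfL and Eif4ebp2 lower, 2 members (4.08%) and 1 member (2.04%), against 1.38% and 1.34% of all tested genes. Eif4g2 had 1109, 1284, 1111 and 1333 CPM in coiled-coil replicates 1 to 4, all below the lowest full-length library, and differed by a log2 value of 0.63 ± 0.12 (adjusted p = 0.0240). Eif2b3, at 9.70, 11.3, 10.1 and 12.6 CPM in the coiled-coil libraries, also did not overlap (0.46 ± 0.11, adjusted p = 0.0453). Eif4ebp2 differed by -0.36 ± 0.08 (adjusted p = 0.0448), the coiled-coil libraries lying between the other groups. With the batch block 12 members were called higher and 3 lower, against 8.99% and 10.1% of all tested genes.

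The members added by the block were Eif1 (0.54, adjusted p = 0.116 without and 0.00945 with the block), Eif2s1 (0.36, 0.0808 and 0.00405), Eif4e (0.39, 0.0821 and 0.00432), Eif3b (0.33, 0.0680 and 0.0106) and Eif4ebp1 (0.55, 0.107 and 0.0219), with Eif1a, Eif1ax, Eif2s2, Eif5 and Eif5a on the same side. Eif5a2 (-0.28, 0.156 and 0.0467) and Eif3f (-0.21, 0.366 and 0.0365) were added on the lower side. In Eif4e the coiled-coil libraries held 45.6, 55.9, 49 and 59.3 CPM, so that coiled-coil replicate 4 lay above full-length replicate 3 (56.4) but below the full-length library of its own batch (74.1). In Eif2s1 the coiled-coil libraries held 61.8, 80.4, 72.4 and 83.3 CPM, and replicate 4 lay just above full-length replicate 1 (83.0) but below the full-length library of its batch (104). Members without a call included Eif4a3 (0.00, interval -0.19 to 0.19) and Eif3m (0.03, -0.14 to 0.20). The calls without the block lay near the threshold: with full-length replicate 2 or 4, or coiled-coil replicate 1 or 3, left out, no member was called in either direction, while the differences stayed of like size. Of all tested genes, 0.0941% to 0.236% were then called higher and 0.121% to 0.395% lower. Under these 4 removals Eif4g2 had log2 values of 0.53 to 0.62 (adjusted p 0.0746 to 0.0896), Eif2b3 0.42 to 0.45 (0.109 to 0.131) and Eif4ebp2 -0.36 to -0.30 (0.106 to 0.131). Over 20 settings the call of Eif2b3 was lost in 13, that of Eif4ebp2 in 11 and that of Eif4g2 in 6. With the batch block and all libraries they were called (adjusted p = 0.0106, 0.00516 and 0.000951).

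Genes around the family were read from lists chosen by function. Their counts stand beside the shares of all tested genes given above, 14.0% called higher and 10.9% lower without the batch block and 21.4% and 22.4% with it. At an unadjusted p under 0.05, 3053 of the 14687 tested genes were higher and 2600 lower after full-length NfL. Of 6 eIF2 kinase and phosphatase genes, 2 fell and none rose after full-length NfL (at an unadjusted p under 0.05, 2 and 1): Eif2ak3 (PERK, the kinase of endoplasmic reticulum stress) fell by 0.56 (SE 0.14, adjusted p = 0.0149) and Eif2ak4 (GCN2, the kinase of amino acid shortage) by 0.28 (SE 0.09, adjusted p = 0.0354), both on the log2 scale. With the batch block 2 genes of this list, Eif2ak2 and Ppp1r15b, were also called higher. Of 10 genes of the ATF4 programme, 7 rose and none fell (at an unadjusted p under 0.05, also 7 and 0), with a median log2 value of 1.01; the block added Cebpb (0.48, adjusted p = 0.178 without and 0.0348 with the block). Atf4 was at 147 ± 9.88 CPM after vehicle and 296 ± 118 after full-length NfL (1.01 ± 0.27, adjusted p = 0.0168). Asns, which makes asparagine, went from 21.5 ± 6.39 to 86.1 ± 50.7 CPM (2.00 ± 0.47, adjusted p = 0.0108), and Chac1, which degrades glutathione, from 0.951 ± 0.369 to 6.62 ± 5.47 (2.79 ± 0.67, adjusted p = 0.0117). The SDs after full-length NfL were large.

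In the list of mTORC1 and its inputs, 4 of 15 genes rose (26.7%) and 2 fell (13.3%), with and without the batch block, and the median was 0.04. With the block these shares are near the 21.4% and below the 22.4% of all tested genes. Akt1s1, an inhibitor subunit (0.40 ± 0.10, adjusted p = 0.0131), Rheb, the GTPase that activates the complex (0.24 ± 0.06, adjusted p = 0.0167), and Mlst8, a core subunit (0.36 ± 0.12, adjusted p = 0.0456), rose. Mtor, the kinase itself, was the other gene called higher (0.15 ± 0.05, adjusted p = 0.0495). Rragd, a GTPase that recruits the complex to lysosomes, fell by 0.81 (SE 0.21, adjusted p = 0.0157), and Deptor, a further inhibitor subunit, fell by 1.42 (SE 0.43, adjusted p = 0.0300), the largest change in the list. Of these 2 inhibitors 1 rose and 1 fell; Mtor and Deptor were named after their values were seen. Of 15 other initiation proteins, 6 rose and 3 fell. Denr (0.86 ± 0.10, adjusted p = 0.000551) and Mcts1 (0.47 ± 0.07, adjusted p = 0.00134), partners in reinitiation and ribosome recycling, rose, as did Dhx29, a helicase for structured leaders (0.52 ± 0.08, adjusted p = 0.00110). Ddx3x, also a helicase, fell by 0.53 (SE 0.10, adjusted p = 0.00402). With the batch block 7 of these 15 were called higher and 5 lower, adding Larp1 above and Paip1 and Paip2 below.

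Of the 10 genes in the elongation and termination list, 4 rose and none fell without the batch block (at an unadjusted p under 0.05, also 4 and 0), with a median of 0.23. With the block Eef1b2, an elongation factor subunit, was called lower (-0.22, adjusted p = 0.210 without and 0.0206 with the block). Those that rose included Gspt1 (0.32 ± 0.07, adjusted p = 0.00782) and Etf1 (0.29 ± 0.07, adjusted p = 0.0154), the release factors, and Eef1g, an elongation factor subunit (0.37 ± 0.10, adjusted p = 0.0161). The other gene called higher, Eef1e1, had the largest value of the list (0.69 ± 0.19, adjusted p = 0.0232). After coiled-coil NfL no gene of the 5 lists was called in edgeR or with the block; at an unadjusted p under 0.05 the counts were 0 higher and 0 lower for the kinases, 1 and 0 for ATF4, 1 and 1 for mTORC1, 4 and 0 for other initiation proteins and 0 and 0 for elongation. Over all 14687 tested genes these counts were 675 and 407, so counts of 0 or 1 in lists of 6 to 15 genes are near the background. The genes with the smallest p were Eif2ak4 (-0.17), Ddit3 (1.09), Mlst8 (0.28), Mcts1 (0.23) and Eef1g (0.19). Between the 2 NfL forms, Denr (0.63 ± 0.10, adjusted p = 0.0139) and Dhx29 (0.32 ± 0.08, adjusted p = 0.0478) were called. With the block, where 8.99% of all tested genes were called higher and 10.1% lower, the counts were 6 higher and 0 lower of 10 ATF4 genes, 5 and 2 of 15 other initiation proteins, 2 and 1 of 15 mTORC1 genes, 2 and 0 of 10 elongation and termination genes and 0 and 1 of 6 kinases and phosphatases.

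**Figure D4:**
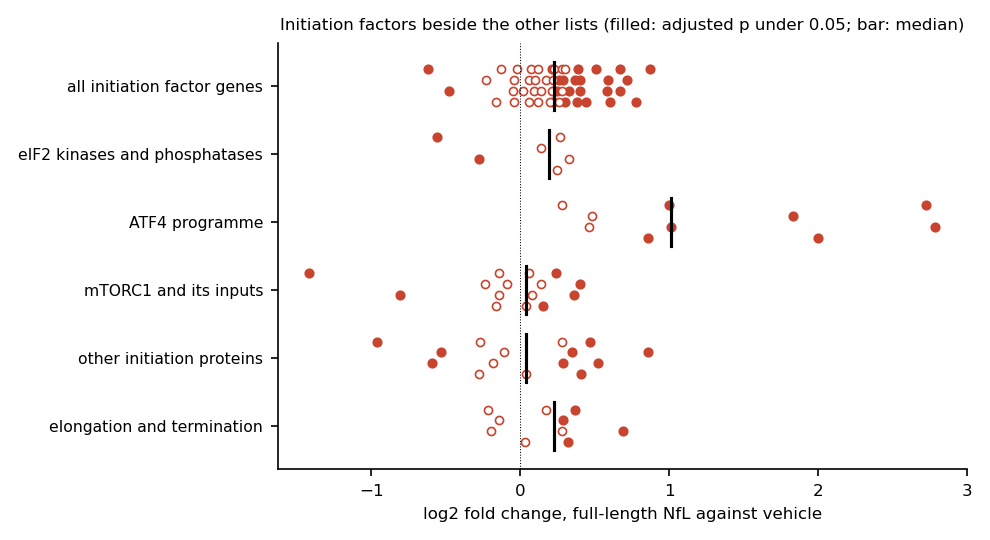
Log2 fold change of full-length NfL against vehicle (x axis) for the initiation factors and the 5 other lists (y axis); each point is a gene, filled where called, and the bar is the list's median. The ATF4 programme has a median of 1.01, the initiation factors 0.23, and the mTORC1 list 0.04 with points on both sides of 0.

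Markers of several other cell types were lower in the full-length group. The summed level of 8 neuronal markers was 17.2 to 61.2 CPM after vehicle and 8.37 to 28.3 after full-length NfL; of the 7 tested, 1 (Rbfox3) was called lower, and 6 with the batch block. That of 8 astrocyte markers was 25.3 to 56.8 against 23.7 to 37.0, with 0 called without the block (at an unadjusted p under 0.05, 1 lower) and 6 called lower with it. The 6 markers of border-associated macrophages summed to 701 to 1336 against 319 to 639 CPM, with 2 of 5 tested called lower, and 3 lower and 1 higher with the block. Fibroblast markers (6 genes) summed to 0.605 to 5.46 against 0.142 to 2.48, with 0 called (at an unadjusted p under 0.05, 1 lower) and 1 lower with the block. At that unadjusted threshold 3053 of all 14687 tested genes were higher and 2600 lower. Oligodendrocyte markers (8 genes) did not shift as a sum, with 218 to 275 CPM against 241 to 259; 1 (Mag) was called higher, and 2 higher and 3 lower with the block. Endothelial markers (5 genes, Cldn5 at 0 in every group) summed to 46.0 to 101 against 37.6 to 49.5, with 1 higher and 1 lower in either fit. The part of these markers in the changes of the initiation factors, and that of the lower mitochondrial share, was not tested. In bulk samples fewer cells of a type and less RNA per cell cannot be told apart.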

How the data were processed

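RNA of primary mouse microglia was sequenced from stranded polyadenylated libraries as single reads of 50 bases, per the labels' protocols. The authors deposited raw read counts per Ensembl gene for the 12 libraries, with no normalization. Reads were aligned to GRCm38 with GSNAP, per the submitters' processing notes; its version, and which counter, gene annotation and strand option were used, is not stated in these sources. Symbols came from GENCODE M21 and matched 99.7% of the identifiers; those unmatched held 0.00651% of the counts. The members and lists were chosen with earlier results of these data known.

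Counts were tested with edgeR 4.0.16 in R 4.3.3: filterByExpr (14687 genes kept, 37949 removed, 99.9% of counts kept), TMM factors and the quasi-likelihood F test, two-sided, in 1 model of 3 groups with 9 residual degrees of freedom, with Benjamini-Hochberg adjustment over all kept genes and a threshold of 0.05. Levels are TMM-scaled CPM, errors are SD for levels and SE for log2 fold changes, and intervals are 95% intervals from the fit. Batch numbers come from the labels: same-numbered libraries of different groups deviated together in all 12 pairs (r = 0.31 to 0.73 across genes; -0.46 to 0.44 for different numbers), so for the members and the lists of related genes the batch block is given beside the counts it changes. Vehicle and full-length values per library are given, in each role, for the member with the smallest p in each comparison and direction, and for Eif4ebp1, Eif4e, Eif2s1, Eif4g1, Eif4a1, Eif5a and Eif1. Coiled-coil values per library are given for only some of these members. From each other list, up to 3 called genes of the prevailing direction and 1 of the opposite one are named. Eif3f, Eef1e1 and the listed genes with the smallest p after coiled-coil NfL beyond these were added after their values were seen. Alternatives were upper-quartile scaling, DESeq2 1.42.0, no filter, the block, removal of GC and length trends, only the groups compared, and leaving out libraries.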

Additional observations from a re-analysis of the deposited data

Results flagged for a closer look

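Of 147 groups of 4 libraries (49 members, 3 groups), 6 held 1 library whose gap to the nearest other library exceeded Dixon's 95% limit as a share of the group's range; chance flags about 1 in 20 groups. In the coiled-coil group, Eif2s2 was at 40.7 CPM in replicate 1 against 53.6 to 55.7 in the others, and Eif3a at 461 CPM in replicate 1 against 496 to 502. Eif3k was at 118 CPM in coiled-coil replicate 3 against 103 to 105. In the full-length group, Eif4a1 was at 16.3 CPM in replicate 3 against 21.4 to 22.3, and Eif4ebp1 at 57.9 CPM in replicate 2 against 36.7 to 40.1. Eif2b4 was at 20.5 CPM in vehicle replicate 4 against 19.7 to 19.8.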

How the results depend on the processing

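Members called higher after full-length NfL against vehicle numbered 22 and, over 20 other settings, 9 to 25: 15 to 25 with 1 library left out (15 without vehicle replicate 1) and 9 without vehicle replicate 2 and full-length replicate 4 together. Over all tested genes, 9.36% to 15.8% were called higher with 1 library left out and 5.35% without those 2 libraries. The 2 lower calls, Eif4ebp2 and Eif5a2, held in all 20 settings, as did 9 of the higher calls (Eif2b3, Eif2b5, Eif2s1, Eif2s2, Eif3b, Eif4e, Eif4ebp1, Eif4g2 and Eif5a), and 13 higher calls were lost in at least 1. None of the 22 higher calls was lost with the replicate block. The fits with libraries left out did not use the block. With GC and length trends removed and the replicate block, 4 members were lower, against 21.8% of all tested genes. For full-length against coiled-coil NfL, the 2 higher and 1 lower calls became 12 and 1 with DESeq2, 12 and 3 with the replicate block, 13 and 3 with the block and GC and length trends removed, 1 and 1 with upper-quartile scaling, 1 and 0 with no filter, and 0 and 0 with only the 2 groups compared or without the 2 libraries named above. With DESeq2, 5.43% of all tested genes were called higher and 4.28% lower. These shares were 8.99% and 10.1% with the block and 10.5% and 9.98% with the block and trends removed. They were 1.28% and 1.42% with upper-quartile scaling and 0.63% and 0.559% with no filter. With only the 2 groups compared they were 0.601% and 0.587%, and without those 2 libraries 0.0338% and 0.0608%. Leaving out 1 library gave 0 to 6 higher and 0 to 1 lower, against 0.0941% to 2.18% and 0.121% to 1.87% of all tested genes. The block changed no call for coiled-coil NfL against vehicle, where 0 members were called in every setting. Of all tested genes, at most 0.163% were called higher and 0.0613% lower in any setting, so 0 members is near the background. No called value changed sign. Apart from fewer samples or genes, the causes were not tested. Depth limits Eif2s3x, Eif3j1 and Eif3j2, with 14 to 85 reads per library.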
